A study of Homo sapiens with 4 samples.

Results

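The genes described here are 9 members of the amyloid precursor and secretase system, chosen by name for their part in amyloid biology. The rule used no value in these data, but earlier results of these data were known when the genes were chosen. They are APP, APLP2, PSEN2, NCSTN, APH1A, PSENEN, BACE1, ADAM10 and ADAM17. All 9 were listed among the 44715 gene symbols of the study. Their recovery was compared between RNA that came down with an antibody against PHGDH and RNA that came down with a control IgG antibody. The cells were HEK293T, an established human embryonic kidney line carrying the SV40 large T antigen. The lysates were native and the beads were washed at high salt. Each antibody had 2 libraries, which the series calls biological replicates, and no further treatment, genotype or time point separated the groups. PHGDH, the enzyme of the first step of serine synthesis from glycolysis, has been linked to Alzheimer disease in other work. The antibody recovers the protein, so a transcript level here is an amount of co-recovered RNA and not its level in the cell.

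APP is a single-pass membrane protein. Shedding by an alpha-secretase, chiefly ADAM10 and to a lesser extent ADAM17, cuts it within the amyloid-beta stretch, whereas BACE1, the beta-secretase, cuts at the start of that stretch. The membrane stub left by either cut is then cleaved by gamma-secretase, a complex of a presenilin such as PSEN2 (the catalytic subunit), nicastrin (NCSTN), an APH1 protein and PEN-2 (encoded by PSENEN). APLP2 is a paralog of APP that the same proteases process. All of these are membrane proteins whose mRNAs are translated at the endoplasmic reticulum.

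Reads assigned to genes numbered 3365837 in anti-PHGDH replicate 1, 1216477 in anti-PHGDH replicate 2, 3875746 in IgG replicate 1 and 1579430 in IgG replicate 2. Values are given as CPM, read counts scaled to a common library total, and 1 read was worth between 0.258 and 0.822 CPM. IgG replicate 1 stood apart: it listed 4148 genes above 0, against 14518 to 16767 in the other libraries, and 5895 of the 9524 genes tested (61.9%) were at 0 in it. The limma estimates of the genes named below are therefore also given without that library. As for cell identity, the neurofilament mRNAs NEFL and NEFM, which this line is known to carry, were at 50.0 to 399 and 75.5 to 351 CPM over the 4 libraries, whereas INA, PAX2 and LHX1 reached at most 6.24, 1.90 and 0.891 CPM. Of the 6 markers of other cell types, PTPRC and HBB were at 0 in all 4 libraries, ALB, GFAP and SYP reached at most 0.297, 1.49 and 1.78 CPM, and the collagen mRNA COL1A1 was at 7.60 to 12.3 CPM in all but IgG replicate 1, where it was at 0. PHGDH mRNA, the transcript of the antibody target, measured 6550.2 CPM in anti-PHGDH replicate 1, 1531 in anti-PHGDH replicate 2, 0 in IgG replicate 1 and 461 in IgG replicate 2. These are RNA levels and do not measure how much PHGDH protein was recovered.

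None of the 8 members tested differed between the antibodies past the threshold, and the members fell into groups by how they compared with IgG replicate 2, the control that detected them all. APP, APLP2 and PSEN2 lay at 0.811 to 1.15 times their level in that control library. PSENEN lay at 1.20 and 1.22 times that level, with counting intervals that reach from just below 1 upwards. The mRNA of nicastrin was at 3.20 and 2.47 times the level of IgG replicate 2 in anti-PHGDH replicates 1 and 2. APH1A and BACE1 were high mainly in anti-PHGDH replicate 1. ADAM10 was at 1893 CPM in IgG replicate 1 and at most 14.0 CPM elsewhere.

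**Figure D1:**
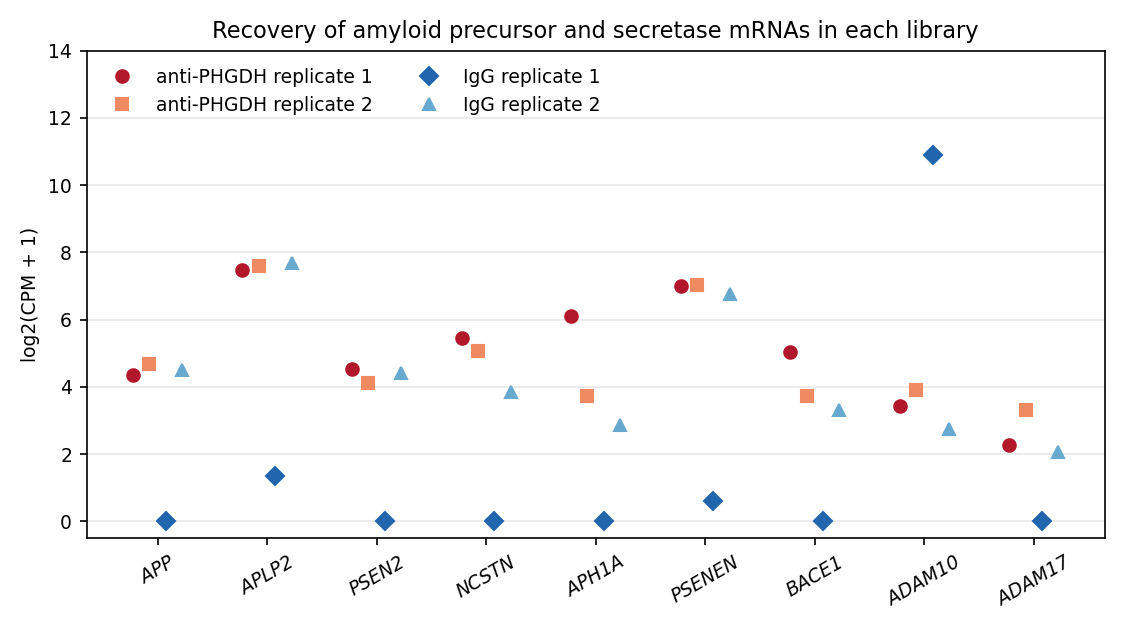
Level of each of the 9 mRNAs in each of the 4 libraries, as log2(CPM + 1); each symbol is 1 library. In IgG replicate 1 (blue diamonds) 6 members were at 0, APLP2 and PSENEN were near 0, and ADAM10 was at 1893 CPM, far above its other libraries.

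The precursors came first. APP, at chr21:25880550-26171128 on the minus strand (positions of genes are those of RefSeq on GRCh38.p14), measured 19.6 CPM in anti-PHGDH replicate 1, 24.7 in anti-PHGDH replicate 2, 0 in IgG replicate 1 and 21.5 in IgG replicate 2. These values rest on 66, 30, 0 and 34 reads. IgG replicate 2 lay between the anti-PHGDH libraries, so the groups overlapped. The anti-PHGDH mean was 22.1 ± 3.57 CPM and the IgG mean 10.8 ± 15.2 CPM (SD, n = 2 each). On the scale of log2(CPM + 1), limma gave APP a fold change of 2.28 with an SE of 2.70 (adjusted p = 0.677). Leaving out IgG replicate 1 brought it to 0.03 with an SE of 0.75 (adjusted p = 1.00 in limma). Against IgG replicate 2, APP was at a ratio of 0.911 in anti-PHGDH replicate 1 (exact 95% interval 0.594 to 1.42) and 1.15 in replicate 2 (0.677 to 1.93). Such intervals compare the reads of 2 libraries and cover counting error only.

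APLP2, at chr11:130069894-130144805 on the plus strand, measured 176 CPM in anti-PHGDH replicate 1, 192 in anti-PHGDH replicate 2, 1.55 in IgG replicate 1 and 205 in IgG replicate 2. IgG replicate 2 was the highest of the 4 libraries and the groups overlapped. Its reads, 593 and 233 with anti-PHGDH and 6 and 323 with IgG, were the most of any member outside IgG replicate 1, so its ratios are the best determined. Against IgG replicate 2 they were 0.862 (0.751 to 0.990) and 0.937 (0.788 to 1.11) in anti-PHGDH replicates 1 and 2. In limma the log2 fold change over all libraries was 3.01 with an SE of 1.87 (adjusted p = 0.677), whereas leaving out IgG replicate 1 gave -0.15 with an SE of 0.94 (adjusted p = 1.00). Both anti-PHGDH libraries were thus slightly below the control library that recovered it well.

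BACE1, the beta-secretase, lies at chr11:117285698-117316256 on the minus strand. Its level was 31.8 CPM in anti-PHGDH replicate 1 and 12.3 CPM in replicate 2. IgG replicate 1 held none and IgG replicate 2 held 8.86 CPM. Both anti-PHGDH libraries were above both IgG libraries. The anti-PHGDH libraries themselves differed by a ratio of 2.58 (exact 95% interval 1.5 to 4.77), so the means were 22.1 ± 13.8 and 4.43 ± 6.27 CPM (SD, n = 2 each). Against IgG replicate 2 the ratio was 3.59 (2.05 to 6.78) in anti-PHGDH replicate 1 and 1.39 (0.626 to 3.11) in replicate 2, where it rests on 15 and 14 reads. The limma estimate for BACE1 was a log2 fold change of 2.74 with an SE of 2.55 (adjusted p = 0.677). It was 1.08 with an SE of 0.75 once IgG replicate 1 was left out (adjusted p = 0.901 in limma). The gene overlaps the antisense transcript BACE1-AS, which had at most 3 reads in any library, and RNF214 on the opposite strand, whose reads numbered 77 and 46 in the anti-PHGDH libraries (replicate 1 first, as in all such pairs) and 0 and 26 in the IgG libraries. Whether counting used strand is not stated, so reads from the shared stretches cannot be assigned with certainty.

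The 4 gamma-secretase genes gave unlike values. PSEN2, a catalytic subunit, at chr1:226870616-226903668 on the plus strand, measured 22.3 CPM in anti-PHGDH replicate 1, 16.4 in anti-PHGDH replicate 2, 0 in IgG replicate 1 and 20.3 in IgG replicate 2. IgG replicate 2 lay between the anti-PHGDH libraries. Its ratios to IgG replicate 2 were 1.10 (exact 95% interval 0.718 to 1.72) and 0.811 (0.440 to 1.46), and limma gave a log2 fold change of 2.13 with an SE of 2.67 (adjusted p = 0.677). Leaving out IgG replicate 1 turned this to -0.08 with an SE of 0.75 (adjusted p = 1.00 in limma).

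NCSTN encodes nicastrin, the large glycoprotein subunit, and lies at chr1:160343383-160358949 on the plus strand. Its level was 42.5 CPM (143 reads) in anti-PHGDH replicate 1 and 32.9 CPM (40 reads) in replicate 2, beside 0 in IgG replicate 1 and 13.3 CPM (21 reads) in IgG replicate 2. Both anti-PHGDH libraries were above both IgG libraries. The anti-PHGDH libraries differed by a ratio of 1.29, with an interval (0.904 to 1.88) that includes 1. Against IgG replicate 2 the ratios were 3.20 (2.01 to 5.32) and 2.47 (1.42 to 4.41), and NCSTN was the 1 member whose counting interval lay above 1 in both anti-PHGDH libraries. Some genes of the other lists, GGA3 and NOTCH2 among them, had such intervals too, and the share over all genes tested was not counted. Both anti-PHGDH libraries were above IgG replicate 2 for 43.9% of genes tested. In limma the log2 fold change was 3.34 with an SE of 2.70 (adjusted p = 0.677), and leaving out IgG replicate 1 gave 1.43 with an SE of 0.75 (adjusted p = 0.652), so NCSTN did not pass the threshold in either fit.

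APH1A, the scaffold subunit, lies at chr1:150265404-150269016 on the minus strand. Its level was 68.0 CPM in anti-PHGDH replicate 1 and 12.3 CPM in replicate 2, beside 0 in IgG replicate 1 and 6.33 CPM in IgG replicate 2. The groups did not overlap, but the ratio of anti-PHGDH replicate 1 to replicate 2 was 5.52 (exact 95% interval 3.28 to 10.0), and only 116 of the 9524 genes tested (1.22%) were at least 5-fold higher in replicate 1 than in replicate 2. The mean with anti-PHGDH was accordingly 40.2 ± 39.4 CPM (SD, n = 2). Against IgG replicate 2 the ratios were 10.7 (5.74 to 22.7) and 1.95 (0.818 to 4.85), the second from 15 and 10 reads. The limma estimate was a log2 fold change of 3.49 with an SE of 2.64 (adjusted p = 0.677). Leaving out IgG replicate 1 gave 2.05 with an SE of 0.75, and APH1A did not pass the threshold in either fit. That SE does not use the spread of APH1A between the anti-PHGDH libraries (SD 1.68 on the log2 scale). APH1A overlaps C1orf54 on the opposite strand, with 16 and 13 reads in the anti-PHGDH libraries and 0 and 16 in the IgG libraries, and thus without the high level of APH1A in anti-PHGDH replicate 1.

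PSENEN, which encodes the smallest subunit PEN-2 and lies at chr19:35745651-35747519 on the plus strand, measured 128 CPM in anti-PHGDH replicate 1, 131 in anti-PHGDH replicate 2, 0.516 in IgG replicate 1 and 107 in IgG replicate 2. The anti-PHGDH libraries nearly coincided (129 ± 1.88 CPM, SD, n = 2) and both lay above IgG replicate 2. The excess was small: the ratios were 1.20 (exact 95% interval 0.999 to 1.44) and 1.22 (0.977 to 1.53). The log2 fold change in limma, 3.35 with an SE of 2.07 (adjusted p = 0.677), was 0.27 with an SE of 0.87 when IgG replicate 1 was left out (adjusted p = 1.00 in limma).

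**Figure D2:**
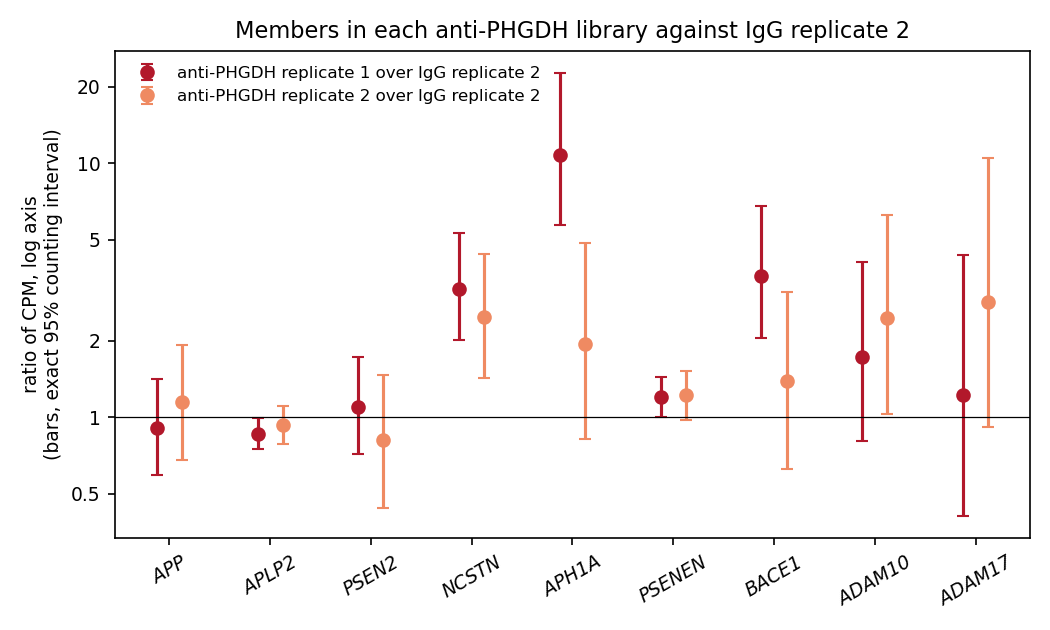
Ratio of CPM in each anti-PHGDH library to IgG replicate 2 for the 9 members, on a log axis; points are ratios and bars are exact 95% counting intervals. APP, APLP2 and PSEN2 sit near 1, NCSTN is above 1 in both libraries (3.20 and 2.47), and APH1A is at 10.7 in anti-PHGDH replicate 1 and 1.95 in replicate 2.

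Summed over the other 3 libraries, the alpha-secretases had the fewest reads of all members outside IgG replicate 1. ADAM10, at chr15:58588809-58749707 on the minus strand, measured 9.80 CPM in anti-PHGDH replicate 1 (33 reads), 14.0 CPM in replicate 2 (17 reads) and 5.70 CPM in IgG replicate 2 (9 reads). In IgG replicate 1 it was at 1893 CPM, from 7335 reads. That was 126 times the highest of the other libraries on CPM + 1, the fourth largest such excess among the 9524 genes tested, of which 9 (0.0945%) exceeded 100-fold. Over all libraries limma gave ADAM10 a log2 fold change of -3.15 with an SE of 2.11 (adjusted p = 0.677), and leaving out IgG replicate 1 gave 0.93 with an SE of 0.79 (adjusted p = 1.00), the opposite sign. The ratios to IgG replicate 2 were 1.72 (exact 95% interval 0.805 to 4.09) and 2.45 (1.03 to 6.24). The direction for ADAM10 thus depends on 1 library. The pseudogenes annotated within ADAM10 had at most 1 read in any library.

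ADAM17, at chr2:9488486-9555830 on the minus strand, measured 3.86 CPM in anti-PHGDH replicate 1, 9.04 in anti-PHGDH replicate 2, 0 in IgG replicate 1 and 3.17 in IgG replicate 2. It did not reach the minimum of 5 CPM in 2 libraries and was left out of the fit. Both anti-PHGDH values were above both IgG values, but they rest on 13, 11, 0 and 5 reads, and the ratios to IgG replicate 2 were 1.22 (exact 95% interval 0.408 to 4.37) and 2.86 (0.915 to 10.5). No difference from IgG replicate 2 was detectable for ADAM17 at this depth. Its overlapping neighbour IAH1 on the opposite strand had 70 and 26 reads in the anti-PHGDH libraries and 37 and 48 in the IgG libraries.

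IgG replicate 1 set the size of most fold changes. Of the 9 members, 6 (APP, PSEN2, NCSTN, APH1A, BACE1 and ADAM17) had no read there, which is compatible with up to 3 reads, or 0.774 CPM, by counting error alone. Against that limit, anti-PHGDH replicate 1 was 4.99-fold higher for ADAM17 and 87.9-fold higher for APH1A, with the other 4 between. Counting error in anti-PHGDH replicate 1 is not included in these values. APLP2 and PSENEN had 6 and 2 reads in it, with ratios of anti-PHGDH replicate 1 to IgG replicate 1 of 114 (exact 95% interval 52.0 to 311) and 248 (68.3 to 2056). Among all genes tested, 7492 (78.7%) were at least 1.5-fold higher in anti-PHGDH replicate 1 than in IgG replicate 1. Such differences were thus common to most genes. The summed level of the 9 members was 502 CPM in anti-PHGDH replicate 1, 444 in anti-PHGDH replicate 2, 1895 in IgG replicate 1 and 391 in IgG replicate 2. Without ADAM10 the sums were 492, 430, 2.06 and 385 CPM in the same order.

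**Figure D3:**
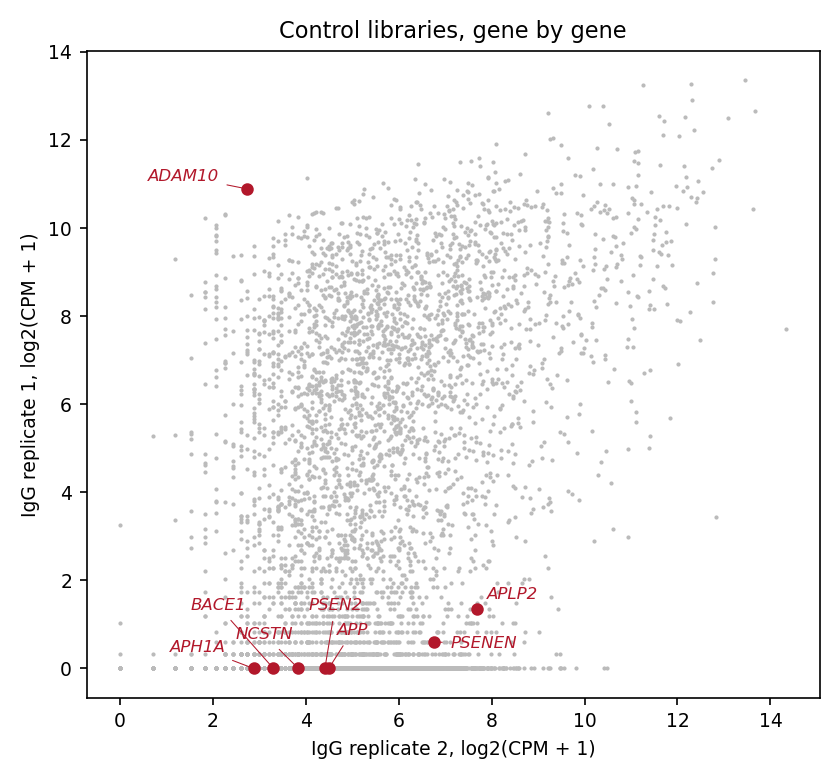
Each grey point is 1 of the 9524 genes tested, with its log2(CPM + 1) in IgG replicate 2 (horizontal) and IgG replicate 1 (vertical); tested members are red. Of the 8 members, 5 lie at 0 in IgG replicate 1, while ADAM10 (1893 CPM) lies near the upper edge for genes of its level in IgG replicate 2.

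Across the list, 0 of the 8 members tested passed an adjusted p of 0.05 in limma in either direction, where 0.0105% of all genes tested were higher (1 gene, PHGDH) and 0% lower. The limma log2 fold change of PHGDH was 7.20 with an SE of 1.45 (adjusted p = 0.0062). Its own within-group SD was 4.55 on the log2 scale, which that SE does not use. Without IgG replicate 1 the estimate was 2.78, and PHGDH did not pass the threshold in that fit. PHGDH also did not pass in edgeR or in DESeq2 (adjusted p = 0.951 in DESeq2). The unadjusted p of limma was also under 0.05 for 0 of 8, beside 261 of the 9524 genes tested higher and 0 lower. On the recovered reads, 0 of 8 passed in edgeR's quasi-likelihood test (adjusted p = 1.00 for each) and in DESeq2 (adjusted p = 0.951 for each). No gene tested passed in either. ADAM10 was the 1 member with an unadjusted p under 0.05 (0.00127 in edgeR and 0.00384 in DESeq2), and its low estimate there rests on its 7335 reads in IgG replicate 1. Over all genes tested, 21 were higher and 162 lower at that unadjusted level in edgeR, and 89 and 149 in DESeq2. With 2 libraries per antibody an exact two-sided permutation test cannot give a p below 0.33, so none was run. Without IgG replicate 1, 0 of 8 passed, beside 1.04% of genes tested called higher and 0.0315% lower. Without IgG replicate 2, 8 of 8 passed, 7 higher and ADAM10 lower, but so did most genes: 74.9% were called higher and 10.8% lower.

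As a list, the 8 members had a median log2 fold change of 2.87, beside 1.92 over all genes tested, and 0.60 beside 0.14 without IgG replicate 1. Scaling moved both: centring on library medians gave 0.38 for the members beside -0.57 for all genes tested, and quantile normalization gave 0.78 beside -0.05. The members' median thus lay above that of all genes under each of these scalings, which was not tested, while ADAM10, with all 4 libraries, lay below it in each. The own sign of APP (-0.22) and PSEN2 (-0.37) turned with centring. Both anti-PHGDH libraries were above both IgG libraries for 4 of the 8 (NCSTN, APH1A, PSENEN and BACE1), where 38.3% of genes tested were, and below both for 0, where 6.16% were. Over all genes tested that split of 3651 above and 587 below became 823 and 3163 with centring and 1629 and 1964 with quantile normalization. Above IgG replicate 2 alone were 5 of 8, those and ADAM10, where 43.9% of genes tested were, and below it was APLP2, where 25.1% were. Between the libraries numbered 2, both of which detected every member, 3 of the 8 (NCSTN, APH1A and ADAM10) were at least 1.5-fold higher with anti-PHGDH, where 27.1% of genes tested were, and 0 were 1.5-fold lower, where 8.39% were. These shares are near those of all genes in view of a list of 8. The anti-PHGDH libraries differed from each other by at least 1.5-fold for more genes: 26.3% of genes tested were that much higher in replicate 1 and 28.3% that much lower.

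**Figure D4:**
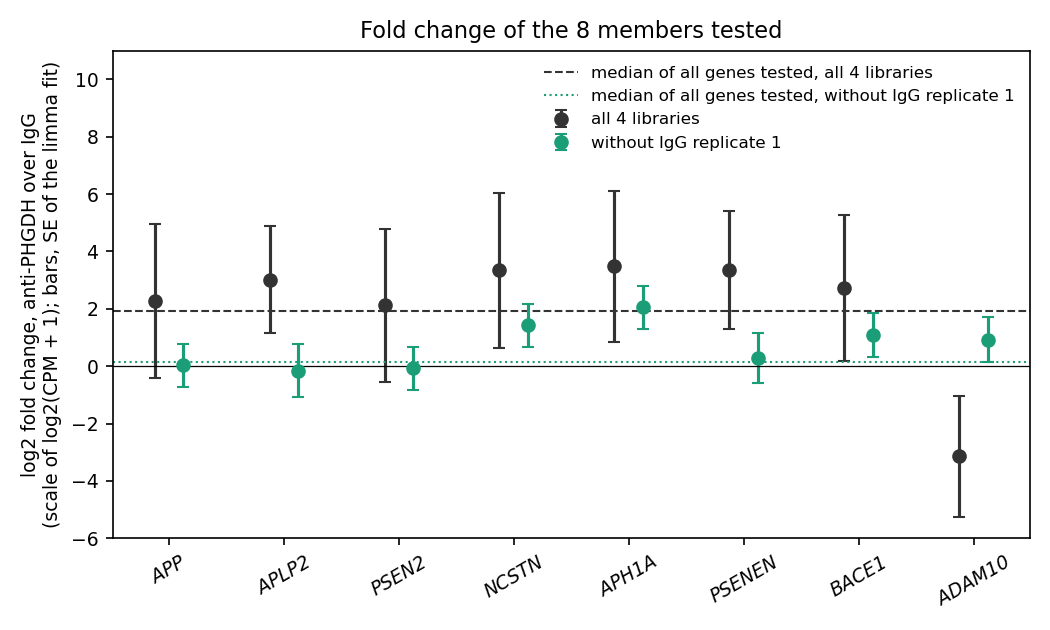
Log2 fold change of anti-PHGDH over IgG on the scale of log2(CPM + 1) for the 8 members tested, with all 4 libraries (black) and without IgG replicate 1 (green); bars are the SE of the limma fit and the dashed and dotted lines are the medians of all genes tested (1.92 and 0.14). Leaving out IgG replicate 1 brings APP, APLP2, PSEN2 and PSENEN to near 0 and turns the sign for ADAM10.

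Other genes of the system were examined as lists, and 0 of the 57 tested in these 6 lists passed the threshold in limma. Of the 4 further precursor and secretase genes described here, APLP1 and BACE2 were tested and APH1B and ADAM9 were too low. BACE2, the paralog of BACE1, was at 65.1 CPM in anti-PHGDH replicate 1, 55.1 in anti-PHGDH replicate 2, 0 in IgG replicate 1 and 34.8 in IgG replicate 2. Both anti-PHGDH libraries lay above both IgG libraries, and the limma estimate was a log2 fold change of 3.35 with an SE of 2.49 (adjusted p = 0.677), or 0.77 without IgG replicate 1. APLP1, the neuronal paralog of APP, measured 67.1 CPM in anti-PHGDH replicate 1, 13.2 in anti-PHGDH replicate 2, 0 in IgG replicate 1 and 5.70 in IgG replicate 2, a spread between anti-PHGDH replicates (5.10-fold) like that of APH1A. In limma its log2 fold change was 3.58 with an SE of 2.63 (adjusted p = 0.677), or 2.21 without IgG replicate 1. APLP1 was thus above IgG replicate 2 in both anti-PHGDH libraries, whereas APLP2 was below it in both and APP lay on either side; these differences between paralogs were not tested.

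Regulators of the alpha-secretases, among them the iRhom and tetraspanin genes that escort ADAM17 and ADAM10, had 8 of 9 genes tested. Of these, 0 passed the threshold, and the median log2 fold change was 2.31, between -0.12 for TIMP3, a metalloprotease inhibitor, and 3.21 for TSPAN17. Without IgG replicate 1 these were 1.39 and 0.81. For 6 of the 8 both anti-PHGDH libraries were above both IgG libraries, as they were for 38.3% of all genes tested. The 19 tested of 22 genes for APP adaptors, sorting and transport had a median of 2.12, from -2.41 for ITM2B to 4.48 for GGA3, which takes part in sorting BACE1 to the lysosome. GGA3 measured 135 CPM in anti-PHGDH replicate 1, 173 in anti-PHGDH replicate 2, 0 in IgG replicate 1 and 46.2 in IgG replicate 2 (adjusted p = 0.677 in limma). Leaving out IgG replicate 1 moved GGA3 to 1.70 and ITM2B to -0.35. For 5 of these 19 the groups did not overlap with anti-PHGDH above (38.3% of all genes tested), and for 2 with anti-PHGDH below (6.16%).

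The 6 tested of 8 amyloid-degrading enzymes had a median log2 fold change of 2.48, from -0.59 for CTSB to 3.74 for THOP1, and 0 passed the threshold. The 6 tested of 11 other secretase substrates had a median of 2.48, from 1.70 for NOTCH1 to 3.82 for NOTCH2. For 3 of the 6 in each list the groups did not overlap, with anti-PHGDH above, beside 38.3% of all genes tested. Without IgG replicate 1, CTSB was at 0.51, THOP1 at 0.72, NOTCH1 at 0.008 and NOTCH2 at 1.55. As a comparison by protein class, the 16 membrane protein mRNAs that also are translated at the endoplasmic reticulum had a median of 1.17, from -2.99 for ITGAV to 5.14 for BSG, and 0 passed. Those extremes became -0.31 and 1.54 without IgG replicate 1. In this list 5 of 16 lay above without overlap and 3 below, beside 38.3% and 6.16% of all genes tested. Without IgG replicate 1 the medians were 1.49 for the further precursor and secretase genes, 1.02 for the regulators, -0.07 for adaptors and transport, 0.58 for the degrading enzymes, 0.28 for the substrates and -0.01 for the membrane protein mRNAs, beside 0.60 for the members and 0.14 for all genes tested.

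**Figure D5:**
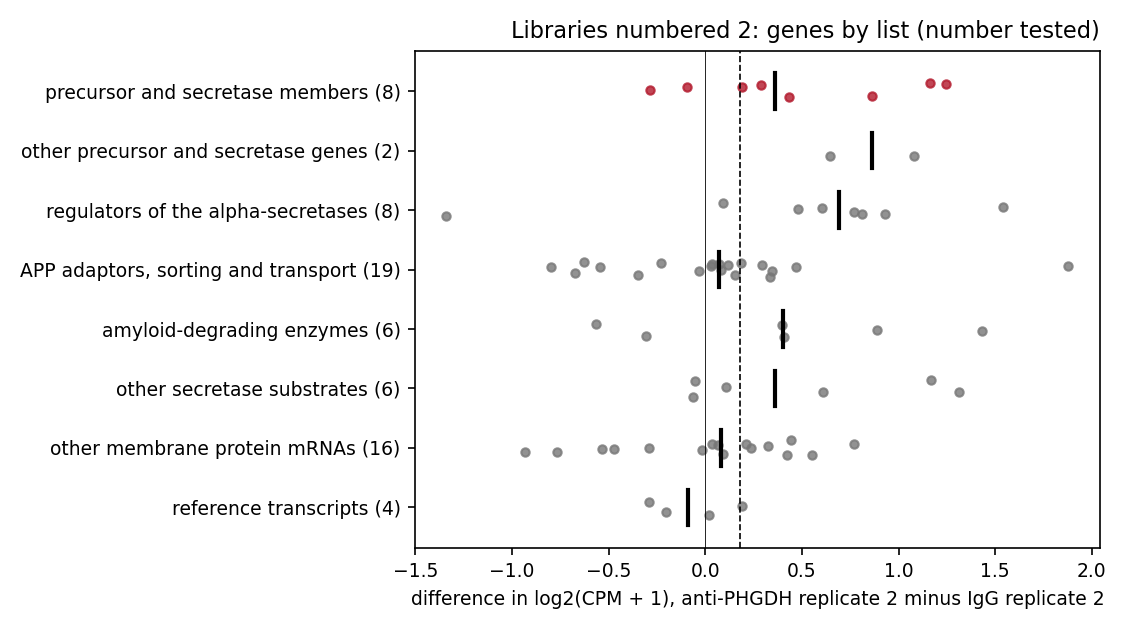
Difference in log2(CPM + 1) between anti-PHGDH replicate 2 and IgG replicate 2 for each tested gene (points) by list, with the list's median (black bar) and the median of all genes tested (dashed line, 0.18); red points are the members. The members lie between -0.29 (PSEN2) and 1.25 (NCSTN) with a median of 0.36, within the range of the other lists, and reference transcripts have a median of -0.09.

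The pattern of APP over the 4 libraries was shared by other genes tested. By the distance between log2(CPM + 1) profiles, each centred on its own mean over the 4 libraries, the nearest genes were RPAP1 (0.037), CLMN (0.062) and ORC4 (0.096), and 508 of the genes tested lay within 0.5, where the median distance was 1.61. For APLP2 the nearest were LRRC58 (0.110), CISD2 (0.120) and ALKBH3 (0.125), with 155 genes within 0.5 and a median distance of 2.65. The 6 neighbours named were all at 0 in IgG replicate 1, as were 61.9% of genes tested, and each was at like levels across the other 3 libraries. The neighbours of APLP2 were at 62.1 to 83.0 CPM in those libraries, below APLP2 itself, which had 6 reads in IgG replicate 1.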

How the data were processed

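The authors deposited 1 table of CPM values per library, printed to 3 decimals. STAR 2.5.4b, featureCounts and hg38 are named in the submitters' processing notes; annotation, strand and handling of duplicate reads are not given in the sources used here. The CPM values were whole multiples of 1 read (99.98 to 100% of values above 0 in a library, within the rounding of the third decimal), which gave reads and depth; all values of the members were whole. Genes that reached 5 CPM in 2 or more libraries (9524) were tested two-sided in limma 3.58.1 under R 4.3.3, on log2(CPM + 1), with the intensity trend of eBayes, no covariates and Benjamini-Hochberg adjustment over all of them. The prior degrees of freedom were infinite, so each SE comes from the trend and not from the gene's own spread. edgeR 4.0.16 and DESeq2 1.42.0 were run on the recovered reads as alternatives, with values that were not whole rounded. Log fold changes understate the change of low genes. Exact (Clopper-Pearson) intervals of 95% were converted to ratios. Reads and CPM are not per length, so ranks and sums of the members do not compare transcript numbers between genes. All members are named; of each other list, the genes with the highest and lowest fold change are named, and 1 listed gene is not reported here. Genes that overlap a member on the genome were chosen after their values were seen. Members and lists were chosen with earlier results of these data known. The procedure was tested on simulated data. The simulated libraries shared a common mean profile, with none like IgG replicate 1, so that test does not show how the fit behaves with such a library. No molecular identifiers are mentioned, so PCR copies may be counted.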

Additional observations from a re-analysis of the deposited data

How the results depend on the processing

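All 16 alternatives were planned. With all 4 libraries, the members had an adjusted p from 0.616 to 1.00 and 0 passed in any of the 13 settings. The number of genes called higher (1) was 11 at a pseudocount of 0.1, 6 without a filter, 4 with the replicate block in limma, and 0 with library medians, without the trend, in edgeR and in DESeq2 (43, 363, 21 and 89 higher and 359, 2, 162 and 149 lower at an unadjusted p under 0.05); leaving out 1 library gave 0 to 7129 higher and 0 to 1032 lower. The deviations of same-numbered libraries correlated with r = 0.006 over genes. Because most genes are at 0 in IgG replicate 1, this correlation cannot show whether the numbers pair the libraries. The main fit did not pair them, and the replicate block changed no call of a member. The median fold change of the members (2.87) was 0.38 with library medians, and leaving out 1 library gave values between 0.60 (IgG replicate 1 out) and 4.72 (IgG replicate 2 out). The 4 members above both IgG libraries were 2 with a filter of 20 CPM (5 members tested), 1 with library medians, 2 with quantile normalization and 5 to 7 without 1 library; the 0 below both were 1 with library medians and 0 to 1 without 1 library. The sign turned for APP (-0.22) and PSEN2 (-0.37) with library medians, and without IgG replicate 1 for APLP2 (-0.15), PSEN2 (-0.08) and ADAM10 (0.93); leaving out 1 library gave -0.15 to 6.18 for APLP2, -0.08 to 4.33 for PSEN2 and -7.22 to 0.93 for ADAM10, and all 8 members passed without IgG replicate 2 only. Library medians and quantiles shift IgG replicate 1, where most genes are at 0, against the others. A fit that leaves 1 library in a group assumes that it varies like the other group. Depth limits ADAM17, ADAM10, APH1A and BACE1 most, with 5 to 14 reads in IgG replicate 2.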
